A study of Mus musculus with 8 samples.

Results

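Acod1 (aconitate decarboxylase 1, also called Irg1) is the enzyme that makes itaconate, and its transcript was followed across RNA-Seq libraries of mouse bone marrow-derived macrophages (BMDMs). It was found as the single row of the count table whose Ensembl identifier, ENSMUSG00000022126, carries that symbol, 1 gene of 49315 listed and of 13051 that held enough counts to be tested. The BMDMs came from C57BL/6 marrow cultured with macrophage colony-stimulating factor at 10 ng/ml, and the labels list no other stimulus. The cells were transfected with gapmeRs, short antisense oligonucleotides that direct RNase H to a target RNA, either against the macrophage lncRNA MAARS (Gm14461; replicates 9, 11, 13 and 15) or a negative control (replicates 2, 5, 6 and 7). The labels give the gapmeR as 25 nM. Which MAARS gapmeR sequence was used, the age of the mice and whether the 4 libraries of a group came from separate animals are not given in the labels. The p-values here therefore judge group differences against the spread between these libraries, which may be technical.

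Itaconate is made in the mitochondrial matrix, where ACOD1 takes cis-aconitate, an intermediate of the aconitase reaction, out of the tricarboxylic acid (TCA) cycle and removes a carboxyl group. The gene is nearly silent in resting macrophages and is among the most strongly induced metabolic genes after Toll-like receptor or interferon signals. Itaconate inhibits succinate dehydrogenase, modifies cysteines of KEAP1 so that the transcription factor NRF2 is released, acts through ATF3 on IκBζ, and has antibacterial activity.

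Library totals ran from 19287279 to 20567123 counts in the control group and from 20839671 to 24541205 in the MAARS gapmeR group, so that every MAARS gapmeR library held more counts than every control library. MAARS itself had CPM values (counts scaled to a common library total with TMM factors) of 12.2, 15.1, 12.98 and 12.2 in the control libraries and 7.71, 6.41, 7.31 and 5.85 in the MAARS gapmeR libraries, in the order of replicates given above, a log2 fold change of -0.95 (SE 0.112; edgeR adjusted p = 5.8e-05). The 8 macrophage markers examined summed to between 13800 and 16300 CPM in control libraries and between 17400 and 20500 CPM with MAARS gapmeR. By edgeR, 5 of the 8 were called higher and 2 lower, against 21.3% and 24.0% of all genes tested. Neutrophil markers summed to between 97.5 and 300 CPM and to between 107 and 172 CPM, with none of the 8 tested called, and stromal markers to between 436 and 1040 CPM and between 727 and 1250 CPM, with none of the 5 tested called. Among all genes tested, 45.4% were called in either direction. Markers of dendritic cells, B cells, mast cells and erythroid cells each summed to under 3 CPM in every library. The T and NK cell markers, between 65.8 and 82.0 CPM and between 41.6 and 52.3 CPM, consisted almost wholly of Cd4, and Cd3g was at 0 in all 8 libraries. In that list 1 marker was tested, and it was called lower by edgeR, as were 24.0% of all genes tested.

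The Acod1 gene lies at chr14:103046977-103056573 on the plus strand of GRCm38 (GENCODE M21), with 5 exons that total 2623 nt and overlap no other annotated gene on either strand. The coding sequence of 1464 nt encodes 488 residues, and the 3′ UTR is 1065 nt long. The sequence ahead of the gene is shown because the lists that follow include the factors known to act there. RefSeq places the start at chr14:103047012, which is 35 bases downstream of the GENCODE start, and the stretch chr14:103046762-103046991 runs from 250 bases ahead of the RefSeq start to just past a TATA box. For comparison, the 250 bases ahead of the start of Cxcl10 (chr5:92348890-92349139, minus strand), the gene with a promoter entry whose profile across libraries was nearest to that of Acod1, are given as well. Capitals mark matches to the motifs searched on both strands, which in Acod1 are, from left to right, GAGGAA, AAGTGAAA and TATAAA.
Acod1: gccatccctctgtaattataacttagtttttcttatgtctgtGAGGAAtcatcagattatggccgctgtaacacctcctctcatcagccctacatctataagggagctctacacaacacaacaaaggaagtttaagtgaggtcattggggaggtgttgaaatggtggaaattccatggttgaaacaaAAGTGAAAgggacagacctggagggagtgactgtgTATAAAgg
Cxcl10: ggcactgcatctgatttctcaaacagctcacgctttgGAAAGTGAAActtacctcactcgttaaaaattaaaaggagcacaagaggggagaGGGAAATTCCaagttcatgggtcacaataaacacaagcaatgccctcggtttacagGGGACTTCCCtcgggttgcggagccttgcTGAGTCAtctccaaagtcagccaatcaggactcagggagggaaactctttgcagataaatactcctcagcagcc

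Within the 300 bases around the RefSeq start (250 before and 50 after), Acod1 held 1 match to the interferon regulatory factor half-site AANNGAAA, at -63 from the start, a motif present in 23.9% of 32851 mouse promoters of the same length. It held 1 match to TATAAA, at -28 (13.6% of promoters), and 1 match to the PU.1 motif GAGGAA, at -208 (28.3% of promoters). These letters were not found there for the interferon-stimulated response element, searched as 2 runs of GAAA with 2 bases between them, which contains the half-site (3.44% of promoters), for the STAT motifs TTCNNNGAA (8.30%) and TTCCNGGAA (1.15%), for AP-1 TGANTCA (7.81%), for C/EBP TTGCNNAA (10.8%) or for the κB consensus (4.51%). The Cxcl10 stretch held matches to the response element, to AP-1 and, at 2 places, to the κB consensus. A match is a run of letters, not a measured binding site.

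Acod1 was nearly lost from the libraries of macrophages transfected with MAARS gapmeR. Its counts were 580, 664, 999 and 926 in the control libraries (replicates 2, 5, 6 and 7) and 26, 17, 45 and 21 in the MAARS gapmeR libraries (replicates 9, 11, 13 and 15). The groups were far apart, with the lowest control library at 14.4 times the CPM of the highest MAARS gapmeR library. In CPM, the 4 control libraries held 29.7, 33.8, 54.0 and 45.5 (mean 40.8 ± 11.1, SD, n = 4) and the 4 MAARS gapmeR libraries 1.23, 0.676, 2.07 and 0.910 (mean 1.22 ± 0.608, SD, n = 4). The log2 fold change from the edgeR fit over all genes was -5.08 (SE 0.278), so that Acod1 was 33.8-fold lower, a decrease of 97.0%. Acod1 was chosen for this difference, which is therefore given as a description without a test, and the statistics of other genes are from the same fit. In bulk RNA, fewer cells carrying a transcript and less of it per cell cannot be told apart. A few of the 13051 genes tested had a lower fitted log2 fold change than Acod1, some of them with mean levels close to 0 CPM with MAARS gapmeR, at which the fitted value cannot be read.

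**Figure D1:**
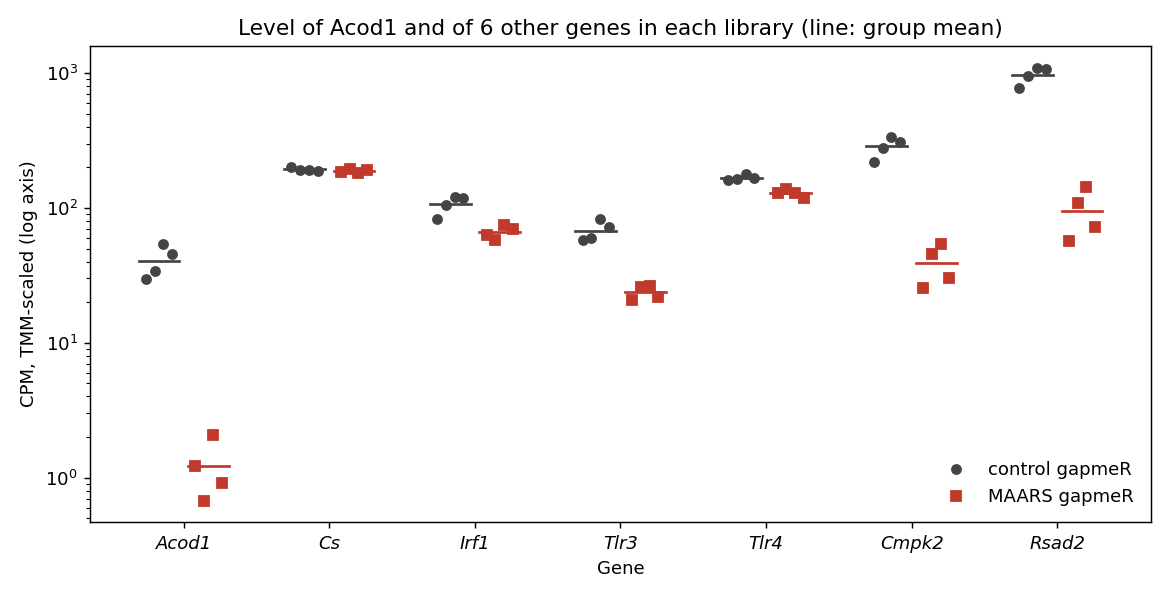
CPM (log axis) of Acod1 and 6 other genes in each of 8 libraries, with control gapmeR libraries as grey circles, MAARS gapmeR libraries as red squares and a line at each group mean. Acod1 goes from a mean of 40.8 CPM to 1.22 CPM, while Cs overlaps between the groups.

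The remaining Acod1 signal was above zero in every MAARS gapmeR library. The exact 95% Poisson intervals of the counts, which cover counting error only, were 17 to 38.1, 9.9 to 27.2, 32.8 to 60.2 and 13 to 32.1 for replicates 9, 11, 13 and 15, so that the intervals of replicates 11 and 13 did not overlap. Per exon length, Acod1 stood at 37.1, 40.0, 64.6 and 56.6 TPM (counts per exon length, scaled to a common total in each library) in the control libraries. These values were at or above those of 83.4, 84.9, 89.8 and 88.3% of the genes with a count in any of the 8 libraries. With MAARS gapmeR Acod1 stood at 1.58, 0.880, 2.65 and 1.17 TPM, at or above 50.5, 45.7, 54.4 and 47.4% of the same genes. Genes at 0 in a library lie below Acod1 in these shares, so its place among the genes detected in that library is lower. In this ranking over all 8 libraries, the transcript thus went from the upper part to the middle.

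Acod1 also varied more between libraries of a group than most genes did. Its coefficient of variation was 27.2% over the control libraries, against a median of 8.29% over all genes tested, and 86.6% of genes had a lower value. Over the MAARS gapmeR libraries it was 49.8%, against a median of 7.65%, and 98.6% of genes had a lower value, at counts low enough that counting error takes a larger share. Among controls, replicates 6 and 7 stood above replicates 2 and 5, with the highest CPM 1.82 times the lowest. Neutrophil marker sums in control replicates 2, 5, 6 and 7 were 142, 97.5, 173 and 300 CPM and stromal sums 620, 436, 719 and 1040 CPM, so that replicates 6 and 7 were also the highest in both. The part of these cells in the spread of Acod1 was not tested.

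Around Acod1, 134 distinct genes were listed by role, of which 125 were tested. By edgeR at an adjusted p under 0.05, 70 of the 125 were called (56.0%), against 45.4% of all genes tested. Of these, 27 were higher (21.6%, against 21.3% of all genes) and 43 lower (34.4%, against 24.0%), with a median log2 fold change of -0.04 over the 125 and 0.01 over all genes. When TMM was replaced by upper-quartile factors, the split among the listed genes was 34 higher and 35 lower, and that among all called genes went from 47.0% to 60.4% higher. The lists were written with earlier results of these data known, so their counts are descriptions.

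Of the 11 genes that supply citrate and cis-aconitate, 2 rose, none fell and 9 did not pass the test (list median log2 fold change -0.04). The share higher was 18.2%, against 21.3% of all genes tested. Cs, the citrate synthase, had a log2 fold change of -0.04 (SE 0.0427; edgeR adjusted p = 0.513), and Slc25a1, which exports citrate from mitochondria, one of 0.08 (SE 0.0481; edgeR adjusted p = 0.194, and 0.0232 with upper-quartile factors). The 2 that rose were Aco1, the cytosolic aconitase and iron regulatory protein, by 0.33 (SE 0.0524; edgeR adjusted p = 0.000437), and Pcx, the pyruvate carboxylase that forms oxaloacetate, by 0.78 (SE 0.187; edgeR adjusted p = 0.00576). Pcx was scarce, between 1.22 and 1.54 CPM in controls and between 1.99 and 2.79 CPM with MAARS gapmeR.

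Of the 14 genes for the steps after cis-aconitate, 6 rose, 2 fell and 6 did not pass. That was 42.9% higher and 14.3% lower, against 21.3% and 24.0% of all genes tested. Both NADP-dependent isocitrate dehydrogenases were among those that rose. Idh1, the cytosolic form, held 276.6, 308.5, 271.6 and 245.9 CPM in controls and 469.8, 397.0, 405.5 and 401.9 CPM with MAARS gapmeR (log2 fold change 0.60, SE 0.0745; edgeR adjusted p = 7.75e-05). The groups did not overlap for Idh1, as in 42.1% of all genes tested when both directions are counted. Idh2, the mitochondrial form, rose by 0.57 on the log2 scale (SE 0.0696; edgeR adjusted p = 7.11e-05). Of the NAD-dependent isocitrate dehydrogenase of the cycle itself, Idh3a had a log2 fold change of -0.00 (SE 0.0718; edgeR adjusted p = 0.995) and Idh3b fell by 0.24 on the log2 scale (SE 0.0511; edgeR adjusted p = 0.00287). The remaining subunit gene Idh3g, named after its values were seen, rose by 0.19 (SE 0.0445; edgeR adjusted p = 0.00428), so the 3 subunit genes did not move together.

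Succinate dehydrogenase is the enzyme that itaconate inhibits. It had 4 of 8 subunit and assembly genes lower, none higher and 4 that did not pass (list median log2 fold change -0.08). For comparison, 24.0% of all genes tested were lower and 21.3% higher. The number lower among the 8 was 2 with upper-quartile factors, without control replicate 2 or 5, and without MAARS gapmeR replicate 11, 13 or 15. A count of 2 is a share near that of all genes. Sdha, the flavoprotein subunit that binds succinate, had a log2 fold change of 0.01 (SE 0.0433; edgeR adjusted p = 0.883). Sdhb, the iron-sulfur subunit, fell from between 208.7 and 245.0 CPM to between 190.1 and 204.0 CPM, a log2 fold change of -0.22 (SE 0.0535; edgeR adjusted p = 0.00641). Sdhaf2, an assembly factor that helps attach the flavin, fell by 0.28 on the log2 scale (SE 0.0584; edgeR adjusted p = 0.00228).

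Of 9 genes for the breakdown of itaconate, 4 rose, 1 fell and 4 did not pass (list median log2 fold change 0.32). In shares, 44.4% were higher and 11.1% lower, against 21.3% and 24.0% of all genes tested. Suclg2, the GTP-forming succinyl-CoA ligase subunit that can activate itaconate with CoA, rose from between 24.3 and 29.4 CPM to between 34.2 and 38.2 CPM (log2 fold change 0.48, SE 0.0683; edgeR adjusted p = 0.000194). Its partner Suclg1 fell by 0.21 on the log2 scale (SE 0.0489; edgeR adjusted p = 0.00525). Auh, a mitochondrial hydratase, rose by 0.33 (SE 0.0748; edgeR adjusted p = 0.00436). Clybl, the lyase that clears citramalyl-CoA at the end of the route, had 4.81, 4.48, 5.25 and 2.70 CPM in controls and 6.95, 7.36, 5.51 and 7.06 CPM with MAARS gapmeR, and rose by 0.65 on the log2 scale (SE 0.183; edgeR adjusted p = 0.0136).

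Of 9 genes for transport and sensing, 7 were tested, of which 2 rose and 5 did not pass (4 rose with upper-quartile factors). The 2 made up 28.6% of the 7, against 21.3% higher among all genes tested. Slc13a3, a plasma membrane carrier of dicarboxylates that takes up itaconate, rose by 0.93 on the log2 scale (SE 0.178; edgeR adjusted p = 0.00146), from levels between 1.43 and 1.64 CPM to levels between 2.44 and 3.42 CPM. Hps1, a subunit of the exchange factor for RAB32, rose by 0.26 (SE 0.0649; edgeR adjusted p = 0.00671). Rab32, the GTPase that brings ACOD1 to vacuoles holding bacteria, had a log2 fold change of -0.11 (SE 0.0806; edgeR adjusted p = 0.285), and of -0.20 without MAARS gapmeR replicate 15 (edgeR adjusted p = 0.0255). Slc25a11, the mitochondrial oxoglutarate carrier, had one of -0.00 (SE 0.0516; edgeR adjusted p = 0.97). Oxgr1, a receptor that itaconate can activate, was at 0 TPM on average in both groups and Slc13a5 was too low to be tested.

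**Figure D2:**
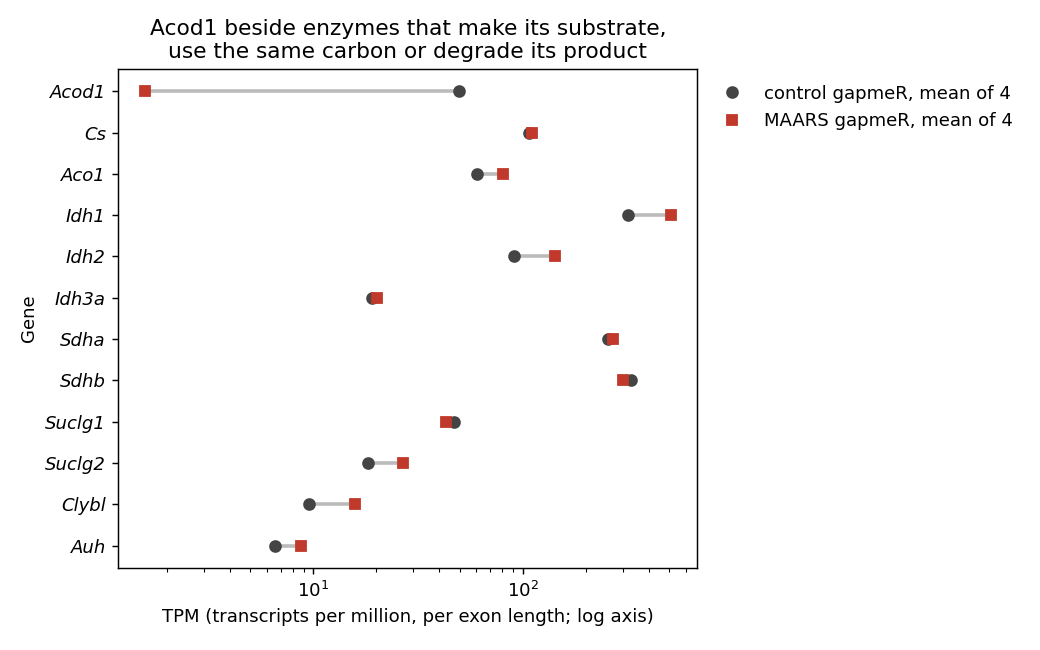
Mean TPM (per exon length, log axis) over 4 control gapmeR libraries (grey circles) and 4 MAARS gapmeR libraries (red squares) for Acod1 and 11 enzymes of its substrate supply, the TCA cycle and itaconate breakdown, each pair joined by a line. Acod1 goes from 49.6 to 1.57 TPM, while Cs lies at 106.9 and 110.3 TPM.

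The KEAP1-NRF2 axis is one of the routes through which itaconate is known to act. Its list had 9 of 18 genes higher, 2 lower and 7 that did not pass (list median log2 fold change 0.20). For comparison, 21.3% of all genes tested were higher and 24.0% lower. Keap1, the sensor that itaconate modifies, had CPM values of 94.4, 107.4, 105.3 and 105.5 in controls and 66.4, 77.0, 76.7 and 68.4 with MAARS gapmeR, with no overlap, the MAARS gapmeR libraries being the lower ones as in 22.8% of all genes tested (log2 fold change -0.52, SE 0.0626; edgeR adjusted p = 6.76e-05). Nfe2l2, which encodes NRF2, had a log2 fold change of -0.00 (SE 0.0538; edgeR adjusted p = 0.995). Among targets of NRF2, Gsr (glutathione reductase) rose by 0.52 (SE 0.0479; edgeR adjusted p = 1.19e-05), Cat (catalase) by 0.63 (SE 0.0795; edgeR adjusted p = 8.61e-05) and Gclm, the modifier subunit of glutamate-cysteine ligase, by 0.31 (SE 0.0450; edgeR adjusted p = 0.000212). Nqo1, a quinone reductase, rose by 0.50 (SE 0.153; edgeR adjusted p = 0.0198), but its adjusted p was 0.0522 without control replicate 5, 0.0596 without control replicate 6 and 0.054 without MAARS gapmeR replicate 15.

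Other NRF2 targets named here were not called higher. Hmox1, the heme oxygenase, had a log2 fold change of -0.12 (SE 0.0636; edgeR adjusted p = 0.145, and 0.0456 without control replicate 5). Slc7a11, the cystine importer, had one of -0.12 (SE 0.155; edgeR adjusted p = 0.545). Osgin1, an oxidative stress-induced growth inhibitor, fell from between 34.0 and 46.7 CPM to between 22.7 and 33.2 CPM (log2 fold change -0.55, SE 0.118; edgeR adjusted p = 0.00301).

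On the ATF3-IκBζ axis, 3 of 6 genes were tested, and 2 of them fell. That was 66.7% of the 3, against 24.0% lower among all genes tested. Atf3, a stress-induced repressor, held 317.3, 337.8, 346.0 and 318.2 CPM in controls and 199.0, 241.1, 243.4 and 191.3 CPM with MAARS gapmeR (log2 fold change -0.59, SE 0.0790; edgeR adjusted p = 0.00013). Its groups did not overlap, the MAARS gapmeR libraries being the lower ones as in 22.8% of all genes tested. Nfkbiz, which encodes IκBζ, fell by 0.57 on the log2 scale (SE 0.163; edgeR adjusted p = 0.0144), although MAARS gapmeR replicate 13, at 8.27 CPM, lay above control replicate 2, at 7.89 CPM. Il6, an output of this axis, was close to absent, with counts of 1, 1, 3 and 5 in controls and 0 in all 4 MAARS gapmeR libraries, where a count of 0 allows up to 3 counts.

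Of 8 other proteins reported as targets of itaconate, 4 had lower transcripts, none higher and 4 did not pass. For comparison, 24.0% of all genes tested were lower and 21.3% higher. The number lower among the 8 was 2 with upper-quartile factors, without control replicate 5 or 6, and without MAARS gapmeR replicate 11 or 13. A count of 2 is a share near that of all genes. The number was 5 with DESeq2 and with limma-voom. Ldha, a lactate dehydrogenase, fell from between 697.1 and 767.8 CPM to between 469.1 and 531.9 CPM (log2 fold change -0.53, SE 0.0539; edgeR adjusted p = 1.93e-05). Gsdmd, the pore former of pyroptosis, fell by 0.39 on the log2 scale (SE 0.0952; edgeR adjusted p = 0.00622), with control replicate 2 at 49.0 CPM inside the MAARS gapmeR range of 43.7 to 50.2 CPM.

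**Figure D3:**
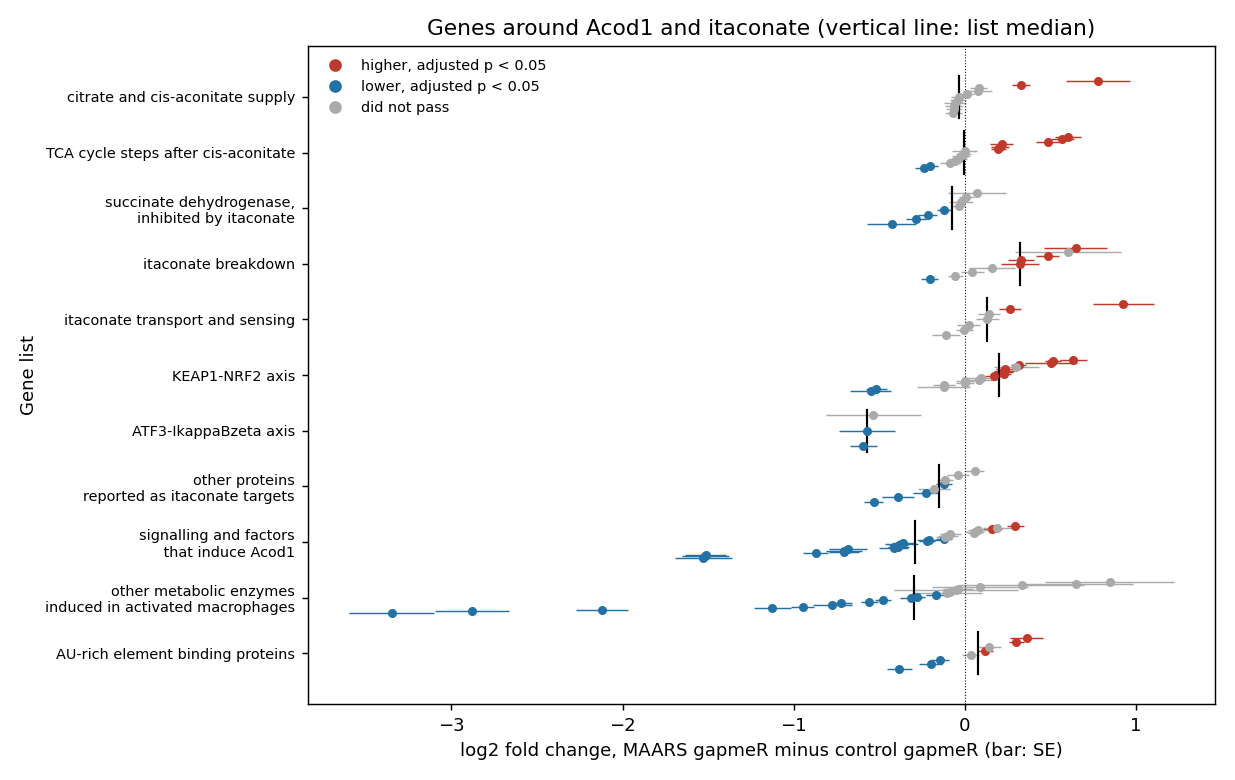
Log2 fold change, MAARS gapmeR minus control gapmeR, with SE bars for the tested genes of 11 lists, in red for higher and blue for lower genes by edgeR at an adjusted p under 0.05 and grey for the rest, and with a black line at each list median. The list for signalling and factors has its median at -0.29 and the list for itaconate breakdown at 0.32.

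Many of the genes known to switch Acod1 on fell. Of 24 receptors, adaptors, kinases and transcription factors upstream of Acod1, 15 fell, 2 rose and 7 did not pass (list median log2 fold change -0.29). The shares were 62.5% lower and 8.33% higher, against 24.0% and 21.3% of all genes tested. Irf1, an interferon regulatory factor that acts on Acod1, held 82.4, 105.6, 120.9 and 117.7 CPM against 63.4, 58.3, 74.8 and 69.3 CPM (log2 fold change -0.68, SE 0.113; edgeR adjusted p = 0.00056). Every control library stood above every MAARS gapmeR library, as in 22.8% of all genes tested.

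Among the receptors and their adaptors, Tlr3, the endosomal sensor of double-stranded RNA, fell by 1.51 on the log2 scale (SE 0.119; edgeR adjusted p = 5.87e-06), and Tlr4, the lipopolysaccharide receptor, by 0.39 (SE 0.0558; edgeR adjusted p = 0.000225). Myd88, the adaptor shared by most Toll-like receptors, fell by 0.87 (SE 0.0715; edgeR adjusted p = 6.7e-06). The 2 genes that rose (4 with upper-quartile factors) were Ifnar1, a chain of the type I interferon receptor, by 0.29 (SE 0.0496; edgeR adjusted p = 0.000649), and Irf3, by 0.16 (SE 0.0551; edgeR adjusted p = 0.0334). The call on Irf3 was lost, at adjusted p up to 0.103, without the filter on low counts and on leaving out any single library other than MAARS gapmeR replicate 13. The NF-κB genes did not pass the test, with log2 fold changes of 0.08 for Nfkb1 (SE 0.0586; edgeR adjusted p = 0.297) and -0.10 for Rela (SE 0.0575; edgeR adjusted p = 0.187, and 0.0301 without control replicate 2).

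The order of the control libraries was often the same in these genes as in Acod1. Acod1 was highest in replicate 6, followed by 7, 5 and 2, and 11 of the 24 upstream genes (45.8%), Irf1, Tlr3, Tlr4 and Myd88 among them, had the control libraries in that order, against 1002 of all 13051 genes tested (7.68%). Of the 11 genes for citrate and cis-aconitate supply and the 14 for the steps after it, none had that order. In the MAARS gapmeR group Acod1 ran from replicate 13 through 9 and 15 to 11, an order found in 1 of the 24 upstream genes (4.17%) and in 417 of all genes tested (3.20%), a share near the background. These genes share the 8 libraries, so the counts describe the libraries and carry no p.

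Acod1 stood beside other metabolic enzymes that activated macrophages induce, of which 20 of 24 were tested, 12 fell, none rose and 8 did not pass (list median log2 fold change -0.30). The 12 were 60.0% of those tested, against 24.0% lower among all genes tested. Rsad2 (viperin, which makes the antiviral nucleotide ddhCTP) held 778.0, 944.0, 1099 and 1069 CPM in controls and 56.7, 109.4, 142.8 and 72.6 CPM with MAARS gapmeR (log2 fold change -3.35, SE 0.249; edgeR adjusted p = 5.27e-06). Cmpk2, a mitochondrial nucleotide kinase, held 218.7, 279.7, 338.5 and 308.3 CPM against 25.6, 45.5, 54.3 and 30.1 CPM (log2 fold change -2.88, SE 0.216; edgeR adjusted p = 5.27e-06). Neither gene overlapped between the groups, the MAARS gapmeR libraries being the lower ones as in 22.8% of all genes tested. In neither was the fitted difference as large as the -5.08 of Acod1, a comparison that was not tested.

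Ass1, the argininosuccinate synthase that recycles citrulline, fell by 2.12 on the log2 scale (SE 0.152; edgeR adjusted p = 5.27e-06), and Gch1, which starts the synthesis of tetrahydrobiopterin, by 0.95 (SE 0.0653; edgeR adjusted p = 5.03e-06). Nos2, the inducible nitric oxide synthase that needs this cofactor, was too low to be tested, with counts of 2, 2, 8 and 16 in controls and 0 in every MAARS gapmeR library. Its counts were higher in control replicates 6 and 7, as those of Acod1 were. Ch25h, which makes 25-hydroxycholesterol, had between 3 and 15 counts in controls and between 5 and 12 with MAARS gapmeR, and Arg1, the arginase of alternatively activated macrophages, had between 0 and 2 and between 0 and 5.

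The genes whose profile across the 8 libraries was most like that of Acod1, by the root mean square (RMS) difference of log2 CPM centred on each gene's mean, were Gbp11 (0.243), Cxcl10 (0.335), Gbp4 (0.462), Ms4a4c (0.482) and Ifi208 (0.482). They were followed by BC023105 (0.560), Gm6545 (0.672), Ifi205 (0.684), Ly6a (0.686) and Ifi44 (0.707). These genes were picked by their values and are described without tests. Cxcl10, a chemokine that attracts T cells, held 17.9, 26.6, 43.1 and 36.3 CPM in controls and 0.899, 0.955, 2.21 and 0.867 CPM with MAARS gapmeR, a log2 fold change of -4.66, with replicate 6 highest among controls and replicate 13 highest with MAARS gapmeR, as in Acod1.

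Gbp4, a guanylate-binding protein, held 16.95, 20.4, 52.8 and 49.95 CPM in controls and 0.473, 0.517, 1.79 and 0.390 CPM with MAARS gapmeR (log2 fold change -5.48). Its control libraries therefore split into the same high and low pairs as those of Acod1, with a wider gap. Gbp11, listed as a polymorphic pseudogene, had 64, 64, 133 and 114 counts in controls and 2, 0, 2 and 0 with MAARS gapmeR, too few for a fold change to be read. Guanylate-binding, Ifi200-family and Ms4a4 genes have close relatives in the genome, and BC023105 and Gm6545 are annotated as processed pseudogenes, so their counts depend on how reads matching several genes were treated, and 5.91% of the exon length of Cxcl10 overlaps a gene on the opposite strand. Of the 10 genes, none lies on the chromosome of Acod1.

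**Figure D4:**
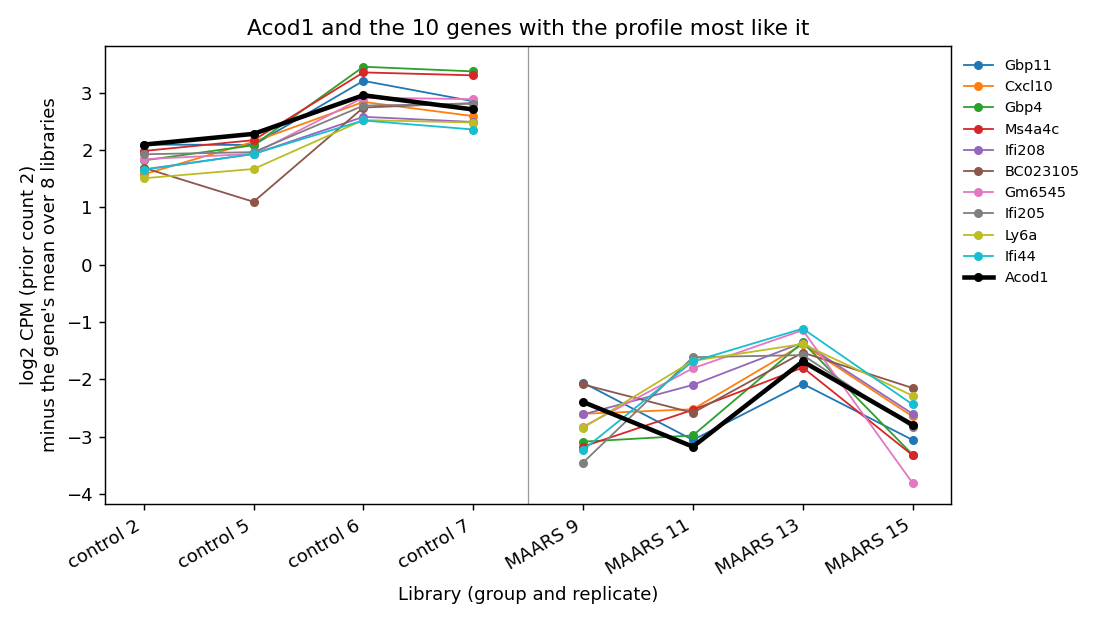
Log2 CPM (prior count 2) of Acod1 (thick black) and of the 10 genes nearest to it in profile, each minus its mean over 8 libraries, for the control gapmeR and MAARS gapmeR libraries. Lines only join the values of a gene. Control replicates 6 and 7 lie above 2 and 5 in all 11 genes, and MAARS gapmeR replicate 13 is highest in CPM for Acod1 and for 9 of the 10 others, Gbp11 being the exception.

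RefSeq held a promoter for 5 of these 10 genes (Cxcl10, Ms4a4c, Ifi208, Ifi205 and Ifi44). The half-site AANNGAAA, which Acod1 carries, was found in 4 of the 5, and the full response element, which was not found in Acod1, in 3 (Cxcl10, Ifi208 and Ifi205). These shares are counts over promoters of genes picked by their values.

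The 4 genes near Acod1 on chromosome 14 described here had much smaller differences. Mycbp2, 56.8 kb beyond its end, had a log2 fold change of -0.15 (SE 0.0772; edgeR adjusted p = 0.141, and 0.0224 without MAARS gapmeR replicate 9).

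On the other side, Kctd12, 64.3 kb ahead of Acod1, rose by 0.32 on the log2 scale (SE 0.105; edgeR adjusted p = 0.0267), with overlapping groups. That call was lost without control replicate 2 or 7 or without MAARS gapmeR replicate 9 or 15, at adjusted p up to 0.0801. Uchl3, at 1350 kb, fell by 0.30 (SE 0.107; edgeR adjusted p = 0.0399), and its call was lost without control replicate 2 or 7, without MAARS gapmeR replicate 9 or 13, and with upper-quartile factors, at adjusted p up to 0.122. Commd6, at 1410 kb, had a log2 fold change of -0.13 (SE 0.0717; edgeR adjusted p = 0.155). None of these 4 log2 fold changes came within 4 units of that of Acod1.

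The study examined MAARS together with HuR (ELAVL1), an RNA-binding protein that stabilises transcripts with AU-rich elements, so the 3′ UTR of Acod1 and the genes of such binding proteins were examined. The 3′ UTR held 1 ATTTA pentamer (0.939 per kb, against a median of 1.34 per kb over 11694 tested genes), and 70.8% of those genes had at least 1. That pentamer, in capitals, sits within the nonamer TTATTTATT, a longer form of the element that 8.32% of the genes carry, at bases 250 to 258 of the UTR. Bases 244 to 264 are shown.
Acod1 3′ UTR element: gaggaattATTTAttaactct

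Of 8 genes for proteins that bind AU-rich elements, 3 rose, 3 fell and 2 did not pass. Each direction thus held 37.5%, against 21.3% higher and 24.0% lower among all genes tested. The number that fell was 1 without control replicate 2 or 7, without MAARS gapmeR replicate 11 or 13, and with upper-quartile factors, where 4 rose. Elavl1 had CPM values of 46.6, 46.0, 47.1 and 47.9 in controls and 44.6, 48.9, 48.3 and 50.1 with MAARS gapmeR, which overlapped (log2 fold change 0.03, SE 0.050; edgeR adjusted p = 0.614). Zfp36 (tristetraprolin, which destabilises such transcripts) fell by 0.38 on the log2 scale (SE 0.0740; edgeR adjusted p = 0.00154), whereas its relative Zfp36l1 rose by 0.36 (SE 0.0968; edgeR adjusted p = 0.0104), with 55.9% of its exon length overlapped by a gene on the opposite strand. Khsrp, another decay-promoting protein, rose by 0.30 (SE 0.0428; edgeR adjusted p = 0.000205). Tia1, a translational silencer, fell by 0.20 (SE 0.0682; edgeR adjusted p = 0.0324), a call that was lost without control replicate 2, 6 or 7, without MAARS gapmeR replicate 11 or 13, and with upper-quartile factors, at adjusted p up to 0.121. Stability of the Acod1 transcript was not measured here.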

How the data were processed

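BMDMs transfected with MAARS gapmeR (4 libraries) or control gapmeR (4 libraries) were compared. The deposited values are raw counts per gene, made by the authors from ribodepleted paired reads of 100 nt. The submitters' processing notes name Trimmomatic 0.36, STAR 2.5.2b, featureCounts from Subread 1.5.2 and build GRCm38. The methods name Ensembl release 79. The strand setting and the treatment of reads matching several genes are not given in the sources used here, so reads from a gene and one annotated over it on the other strand (as for 10.9% of Keap1 and 11.3% of Myd88 exon length) cannot be told apart.

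Groups came from the sample labels. With R 4.3.3 and edgeR 4.0.16, genes were kept by filterByExpr (minimum count 10, minimum total 15), TMM factors were computed, and groups were compared by glmQLFit and glmQLFTest with Benjamini-Hochberg adjustment over 13051 genes. The SE of a log2 fold change was its absolute value divided by the square root of F. CPM used TMM except in the marker sums, and profiles used a prior count of 2. TPM used merged exon lengths from GENCODE M21, which holds 99.47% of the genes. Chi-square per gene between libraries of a group was 4.26 to 15.4, so no libraries were duplicates within sampling noise. DESeq2 1.42.0 and limma 3.58.1 served as alternatives, and the procedure was tested on simulated counts. Acod1, the gene lists and the motifs were chosen with earlier results of these data known. Genes named were Acod1, MAARS, a written list of pathway genes, for each list the 2 called members of lowest p among those higher and among those lower, the 10 genes most like Acod1, and its 3 nearest tested neighbours on each side. A few genes under this rule are left out.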

Additional observations from a re-analysis of the deposited data

Results flagged for a closer look

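In 8 of the 138 groups of 4 libraries examined over the named genes, 1 library lay far from the others by Dixon's criterion (the gap to the nearest library over the whole range), which chance alone exceeds in about 1 of 20 groups. Replicate 9 of the MAARS gapmeR group was the farthest in 3 genes, highest for Idh1 at 469.8 CPM and Cat at 399.6 CPM and lowest for Gch1 at 20.8 CPM. Replicate 13 of that group was highest for Cxcl10 at 2.21 CPM and for Gbp4 at 1.79 CPM, the same library in which Acod1 was highest with MAARS gapmeR. Among controls, replicate 2 was lowest for Keap1 at 94.4 CPM and highest for Hps1 at 39.1 CPM, and replicate 7 was lowest for Aco1 at 77.6 CPM. Acod1 itself exceeded the criterion in neither group.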

How the results depend on the processing

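The log2 fold change of Acod1 was -5.07 with RLE factors, -5.01 with upper-quartile factors, -5.06 with DESeq2, -5.14 with limma-voom and -4.98 with a prior count of 2, and ran from -5.45 to -4.86 on leaving out each library in turn. At an adjusted p under 0.01 edgeR called 1740 genes higher in place of 2782. The listed pathway genes called numbered 52 to 71 in place of 70, and 8 to 10 of the 10 genes most like Acod1 were kept. Of 53 genes of the naming rule that were called, 48 kept their call and direction in every alternative. The others were Nqo1, Irf3, Tia1, Kctd12 and Uchl3.

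Signs reversed only for 6 genes near 0 that were not called. With upper-quartile factors the log2 fold change of Cs was 0.026, of Idh3a 0.062, of Slc25a11 0.060 and of Nfe2l2 0.063. With RLE factors Idh3a was at 0.0060, Slc25a11 at 0.0041 and Nfe2l2 at 0.0065. With DESeq2 Idh3a was at 0.0020 and Nfe2l2 at 0.0021, Nfe2l2 was at 0.00097 with limma-voom, and Slc25a11 at 0.0023 with thinned counts. Leaving out each library in turn gave -0.064 to 0.047 for Idh3a, -0.011 to 0.024 for Sdha, -0.036 to 0.032 for Slc25a11, -0.042 to 0.026 for Nfe2l2 and -0.27 to 0.029 for Slc7a11.

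No paired analysis was possible because the groups share no replicate numbers. Acod1 rested on 17 to 45 counts in each MAARS gapmeR library, which limits the precision of its remaining level, and no other control oligonucleotide or MAARS gapmeR was analysed here.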
